A study of Mus musculus with 8 samples.

Results

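The 24 h fasting response of histone H3 lysine 27 acetylation (H3K27ac) was compared, region by region, in the small intestinal crypts of mice that had received no tetracycline. Both groups were 9-week-old male C57BL/6J mice: Fed_(-Tetra), fed animals without the antibiotic, and Fast_(-Tetra), animals fasted for 24 h without the antibiotic. Each group was 1 labelled sample, a preparation of small intestinal epithelial cells profiled by CUT&Tag, where a transposase tethered to an antibody cuts and tags DNA next to a histone mark. Each sample came with 2 deposited peak lists, here named Fast 1, Fast 2, Fed 1 and Fed 2. The labels do not say whether the lists of a sample came from separate mice, so the spread between them may be technical. The other samples of the study, used here as lists that took no part in the calls, were H3K27ac from mice on 21 days of the antibiotic, fed or after the same fast (Fed_(+Tetra), Fast_(+Tetra)), and acetylation of lysine 9 (H3K9ac) from the mice without it. Overlapping peaks of the 4 lists on chromosomes 1 to 19, X and Y (mm10) were merged into 95289 regions, against 348617 regions when all 16 lists of the series were merged. A region that both Fast lists and neither Fed list held is called Fast-only, and the reverse Fed-only. With 2 lists against 2, the exact permutation test can give no two-sided p below 0.33, so no difference below could pass 0.05.

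H3K27ac is laid down by the acetyltransferases p300 and CBP and is found at active promoters and enhancers. Crypts hold the Lgr5+ stem cells, Paneth cells and dividing progenitors that renew the absorptive and secretory cells of the villus. Fasting lowers insulin, raises glucocorticoids and frees fatty acids, which activate the nuclear receptor PPAR alpha and its genes of fatty acid oxidation and ketone body synthesis, while the forkhead factors of the FoxO family enter the nucleus.

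Some promoters called in 1 direction are printed first. Each window held bases under peaks of 1 feeding state and none under peaks of the other. The sequences are RefSeq promoter windows (GRCm38.p6), from 250 bases before to 50 bases after the start of transcription, written 5′ to 3′ on the gene's strand. Capitals mark the letters of the motifs searched on both strands (those that matched were GGAATG for the TEAD factors, TGANTCA for the AP-1 factors, TTTATNG for the CDX factors and AGATAA for the GATA factors). The genes were chosen by hand, and for Ghr and Mmp7 the window was taken from those with an AP-1 match. A match describes the sequence and is not evidence of a bound factor.
Fgfr4, chr13:55152568-55152867, plus strand, with a TEAD match: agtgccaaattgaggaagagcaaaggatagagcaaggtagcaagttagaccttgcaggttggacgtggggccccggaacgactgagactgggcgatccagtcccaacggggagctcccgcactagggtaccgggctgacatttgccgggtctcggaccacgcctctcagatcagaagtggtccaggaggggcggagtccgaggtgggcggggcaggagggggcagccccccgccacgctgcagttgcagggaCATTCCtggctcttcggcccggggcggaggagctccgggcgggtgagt
Ghr, chr15:3581793-3582092, minus strand, with an AP-1 match: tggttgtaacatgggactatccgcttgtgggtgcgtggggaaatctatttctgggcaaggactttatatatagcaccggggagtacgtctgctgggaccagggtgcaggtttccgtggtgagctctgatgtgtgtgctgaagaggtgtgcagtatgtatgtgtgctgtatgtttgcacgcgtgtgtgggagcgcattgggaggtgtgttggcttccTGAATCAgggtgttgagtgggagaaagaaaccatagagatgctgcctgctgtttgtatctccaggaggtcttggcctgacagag
Mmp7, chr9:7691840-7692139, plus strand, with CDX, GATA and AP-1 matches: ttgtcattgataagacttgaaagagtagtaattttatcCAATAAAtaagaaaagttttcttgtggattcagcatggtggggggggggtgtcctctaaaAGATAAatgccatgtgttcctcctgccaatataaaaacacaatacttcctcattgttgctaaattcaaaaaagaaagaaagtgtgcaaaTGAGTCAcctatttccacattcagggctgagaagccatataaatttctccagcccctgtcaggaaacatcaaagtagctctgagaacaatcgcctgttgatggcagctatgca
Acot1, chr12:84009252-84009551, plus strand, with no match: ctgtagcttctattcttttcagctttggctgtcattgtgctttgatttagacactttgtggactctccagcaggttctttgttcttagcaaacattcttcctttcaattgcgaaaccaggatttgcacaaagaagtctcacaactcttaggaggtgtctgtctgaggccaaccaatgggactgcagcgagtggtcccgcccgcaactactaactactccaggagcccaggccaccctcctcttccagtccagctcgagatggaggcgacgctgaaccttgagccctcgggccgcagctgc
Cd3e, chr9:45009562-45009861, minus strand, with no match: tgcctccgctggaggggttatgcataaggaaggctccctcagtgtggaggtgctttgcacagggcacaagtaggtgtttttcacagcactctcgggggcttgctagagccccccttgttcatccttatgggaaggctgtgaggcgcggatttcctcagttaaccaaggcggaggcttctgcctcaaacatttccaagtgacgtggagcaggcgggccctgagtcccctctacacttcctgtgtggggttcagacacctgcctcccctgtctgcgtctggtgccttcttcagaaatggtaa
Of the 300 bases of the Acot1 window, 300 lay under peaks in Fast 1 and in Fast 2, and 0 in either Fed list. The Fgfr4 window had 279 bases under peaks in Fast 1, 300 in Fast 2 and 0 in both Fed lists. The Mmp7 window had 95 and 300 bases in the Fast lists and 0 in the Fed lists, a call made with all peaks only. The Cd3e window was the mirror image, with 0 in both Fast lists and 300 in each Fed list. The Ghr window had 0 bases in Fast 1 and 300 in Fast 2, so this gene was called from a Fast 1 peak elsewhere within 1 kb of a gene end.

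The lists differed in length before any region was compared. Fast 1 held 68545 peaks, Fast 2 55415, Fed 1 36340 and Fed 2 47565, and they covered 53.1, 64.2, 37.7 and 53.2 Mb. Fast 1 stood apart: 11.8% of its peaks were 200 bp wide, against 0.0036% or fewer in the other 3 lists, and 45.3% of them overlapped no peak of another list, against 20.9% in Fast 2, 9.35% in Fed 1 and 10.8% in Fed 2. Mean peak number was higher in Fast by 0.57 on the log2 scale (exact permutation p = 0.33). The peaks are deposited as scored intervals without read counts, so depth is unknown. Every comparison was therefore repeated with the 36340 highest-scoring peaks of each list. The tissue label was checked against its markers. All 12 epithelial genes, among them Epcam, Cdh1, Vil1 and Cdx2, had a peak within 1 kb of a gene end in each of the 4 lists. Of 10 genes of other tissues, 1, 2, 0 and 2 did so in Fast 1, Fast 2, Fed 1 and Fed 2, with Alb, Ins2, Myh6 and Krt5 at 0 bp in all 4 lists. Of 16 immune genes 7, 8, 9 and 8 were marked. Of 14 Paneth cell and antimicrobial genes 6, 7, 5 and 6 were marked, while the defensin gene Defa17 and Ang4 had 0 bp under peaks in all 4 lists.

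In the crypts of fasted mice, acetylated regions that no Fed list held outnumbered the reverse when all peaks were used, and the order turned over when each list gave the same number of peaks. With all peaks, 3592 regions (3.77%) were Fast-only and 1413 (1.48%) Fed-only. With equal numbers of top peaks, 1487 of 59062 regions (2.52%) were Fast-only and 2341 (3.96%) Fed-only. Both settings called 904 regions Fast-only, which is 25.2% of the all-peak calls and 60.8% of the top-peak calls, and 821 regions Fed-only, 58.1% and 35.1%. Single lists weighed heavily on these counts. The Fast-only count was 15591 without Fast 1, 35326 without Fast 2, 4203 without Fed 1 and 9414 without Fed 2, and the Fed-only count was 2063, 5661, 6647 and 4928. Regions of all 4 lists numbered 20897 (21.9%), and 31063 (32.6%) lay in Fast 1 alone.

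**Figure D1:**
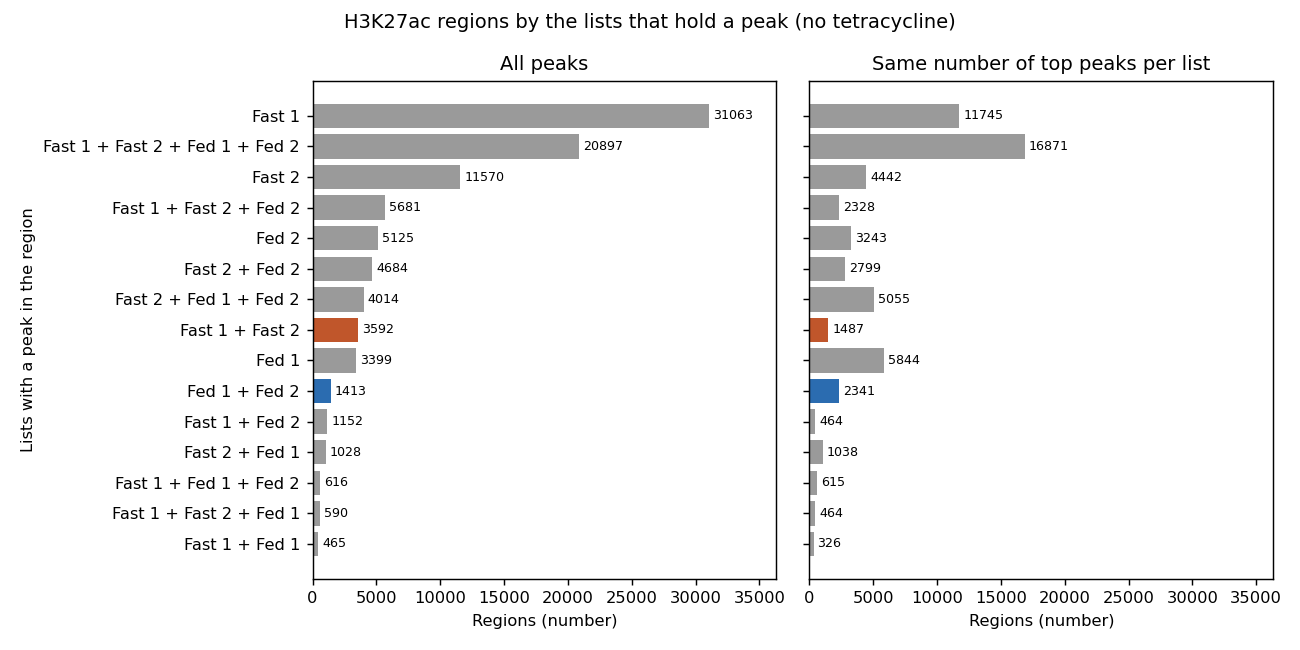
Number of merged regions (horizontal axis) for every combination of lists that held a peak (vertical axis), all peaks on the left, equal numbers of top peaks per list on the right. Fast-only regions (orange) fell from 3592 to 1487 and Fed-only regions (blue) rose from 1413 to 2341 between the panels; regions in Fast 1 alone fell from 31063 to 11745.

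The called regions of either state were narrower than the regions of all 4 lists and wider than the whole set. With all peaks they had a smaller share at gene ends than both, and lower scores than the regions of all 4 lists. Their median width was 897.5 bp for Fast-only and 832 bp for Fed-only, against 1754 bp for the regions of all 4 lists and 693 bp for all regions. Each peak's score was ranked within its own list, and the lower rank of a region's lists had a median percentile of 23.4 in Fast-only regions, 17.6 in Fed-only regions, 57.9 in regions of all 4 lists and 29.3 in all regions. The lower rank was taken over 2 lists in called regions but over 1 in regions of a single list. The whole set is therefore not a like comparison for it. With equal numbers of top peaks the Fast-only median was 53.0, the Fed-only median 29.2 and that of all regions 49.8. These ranks were still those of the full lists. The cut took more low-ranked peaks from the longer Fast lists than from Fed 2 and none from Fed 1. These medians are therefore not a like comparison between states. With all peaks the lower percentile exceeded 50 in 482 Fast-only (13.4%) and 61 Fed-only regions (4.32%), against 58.1% of the regions of all 4 lists. Gene ends (within 1 kb) took 337 Fast-only regions (9.38%) and 182 Fed-only regions (12.9%), against 37.5% of the shared regions and 14316 of all 95289. Of the Fast-only regions 54.6% lay inside a gene and 36.0% between genes. Of the Fed-only regions the shares were 50.7% and 36.4%. Over 100 kb from any gene lay 219 Fast-only regions (6.10%) and 76 Fed-only regions (5.38%), against 2.97% of the regions of all 4 lists and 8.85% of all regions. Fast-only shares ranged from 2.94% of the regions on chromosome Y to 4.61% on chromosome 16, and Fed-only shares from 0% on Y to 1.68% on chromosome 4.

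The Fast-only regions recurred in fasted mice that had received tetracycline, more often than in the fed ones. A peak was present at 49.3% of them in Fast 1 and 37.2% in Fast 2 of the tetracycline group, and at 9.88% in Fed 1 and 28.9% in Fed 2. Both Fast lists lay above both Fed lists, by 23.9 percentage points on average (exact permutation p = 0.33, the smallest possible). Among all 95289 regions the same lists held 40.4%, 35.2%, 29.1% and 42.6%, and there the groups overlapped. The gap was 39.4 points between the lists numbered 1 and 8.32 points between those numbered 2. For the 904 regions called in both settings the shares were 75.4%, 59.8%, 14.5% and 38.2%, a mean gap of 41.3 points (exact permutation p = 0.33). The difference rested on several lists: with calls made without Fast 1 it was 9.30 points, without Fast 2 3.95, without Fed 1 22.5 and without Fed 2 16.1. With only the lists numbered 2, in the calls and in the tetracycline group, it was -2.69 points. When every list, those with tetracycline included, was cut to equal numbers of its top peaks, the shares at Fast-only regions were 53.9%, 57.5%, 21.1% and 21.8%, a difference of 34.3 points (exact permutation p = 0.33).

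The Fed-only regions separated the tetracycline lists with equal numbers of top peaks but not with all peaks. With all peaks they were found in 36.7%, 32.2%, 27.5% and 62.3% of cases in Fast 1, Fast 2, Fed 1 and Fed 2, so that Fed 1 lay below and Fed 2 above both Fast lists. The Fast minus Fed difference was -10.4 points (exact permutation p = 1), and 11.9 points with only the lists numbered 1. Under the top-peak setting the shares were 28.7%, 39.4%, 42.7% and 57.3%, both Fed lists above both Fast lists, a difference of -15.95 points (exact permutation p = 0.33). Over all regions in that setting it was -0.13 points. H3K9ac of the mice without tetracycline overlapped between states at both kinds of region when all peaks were used. At Fast-only regions an H3K9ac peak was present in 17.3% and 12.6% of cases in the Fast lists and in 2.81% and 13.9% in the Fed lists (difference 6.57 points, exact permutation p = 0.67). At Fed-only regions the shares were 13.7%, 10.6%, 8.63% and 21.3% (difference -2.80 points, exact permutation p = 1). The sign of both differences changed when only 1 pair of lists was used, to -2.43 points at Fast-only regions (lists numbered 2) and 6.21 points at Fed-only regions (lists numbered 1). From top peaks the H3K9ac difference at Fast-only regions was 0.50 points (exact permutation p = 1). At Fed-only regions it was -7.24 points with both Fed lists above both Fast lists (exact permutation p = 0.33), beside -6.74 points over all regions.

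**Figure D2:**
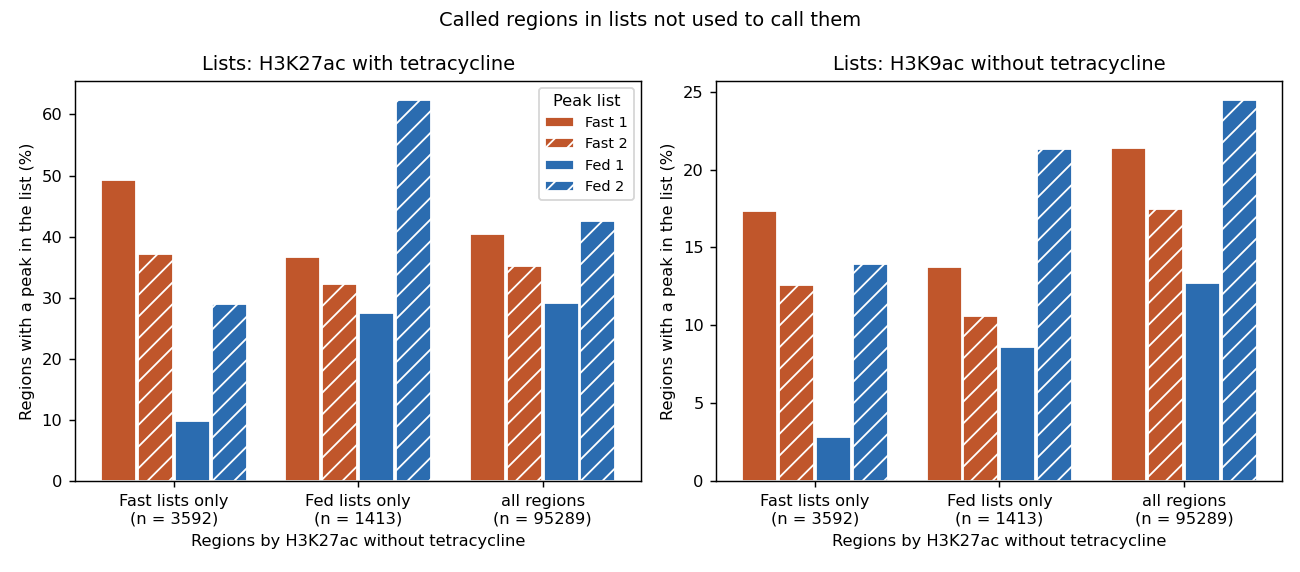
Share of regions (vertical axis, percent) with a peak in each list that took no part in the calls: H3K27ac with tetracycline (left) and H3K9ac without it (right), for Fast-only, Fed-only and all regions. At Fast-only regions both tetracycline Fast lists (49.3% and 37.2%) sat above both Fed lists (9.88% and 28.9%); in each other group of bars, drawn with all peaks, the states overlapped.

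Distal regions, over 1 kb from any gene end, were ranked by the lower percentile of their lists, a value that belongs to the call itself. The first of the Fast-only ones was chr4:97465274-97466649, 111 kb from Nfia, a nuclear factor I transcription factor gene, at percentiles of 98.2 and 89.9. It was followed by chr4:95483306-95484657, 72.8 kb from Fggy, and chr1:91577324-91578938, 17.7 kb from Asb1. Next were chr1:179255447-179257216 inside Smyd3, a lysine methyltransferase gene, chr6:97287953-97290037 inside Frmd4b, and chr1:63001524-63003810, 44.0 kb from Ino80d, a chromatin remodeller subunit gene. All 6 were called in both settings. With tetracycline, 5 of the 6 had peaks in both Fast lists, and the Asb1 region in Fast 1. None had one in Fed 1, and 3 (Smyd3, Frmd4b and Ino80d) had one in Fed 2.

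The leading distal Fed-only regions were chr16:11618416-11619466 inside Snx29, chr4:133070372-133071583 inside Ahdc1, chr12:69389817-69390557 near Arf6, chr12:113423711-113426195, chr11:20895979-20896964 near Lgalsl, and chr9:45963485-45964183 near Pafah1b2. The second of the chromosome 12 regions was 2485 bp wide and 63.4 kb from Adam6b, a gene of the immunoglobulin heavy-chain locus, at percentiles of 96.4 in Fed 1 and 69.3 in Fed 2. With tetracycline, the Snx29, Arf6, Lgalsl and Pafah1b2 regions had peaks in both Fed lists, each also with a peak in at least 1 Fast list.

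Called regions were then counted by their nearest gene within 100 kb, where 3.88% of all regions were Fast-only and 1.54% Fed-only; the genes below are those with the highest counts. Rad51b, a recombination repair gene, was nearest to 9 Fast-only and 0 Fed-only regions among its 64. Lrig1, a stem cell gene whose product restrains ErbB receptors, had 7 of 50, the transcription factor gene Sox6 7 of 32, Sypl 7 of 19 and the protease gene Tmprss2 7 of 38. Arid5b, Cblb and Ccdc192 each had 6. The calls held in both settings were 3 for Rad51b, 1 for Lrig1, 5 for Sox6, 4 for Sypl, 4 for Ccdc192 and 0 for Tmprss2, Arid5b and Cblb. On the Fed side Atxn1 had 5 Fed-only regions of 38, of which 3 held in both settings, and Snx29 4 of 41, of which 3 held. Abcg2, an efflux transporter gene, had 3 of 18, Agfg1 3 of 18, Cab39 3 of 15, Ccdc71l 3 of 20, Cdc20b 3 of 12 and Eipr1 3 of 18. Of these, 3 held for Agfg1, 2 each for Abcg2 and Cab39, and 1 each for Ccdc71l, Cdc20b and Eipr1. Snx29, Cab39 and Ccdc71l each also had 1 Fast-only region.

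At gene ends, 283 of 21883 protein-coding genes (1.29%) were marked in the Fast lists alone, and 110 (0.503%) in the Fed lists alone. With equal numbers of top peaks the counts were 131 (0.599%) and 321 (1.47%), with 69 and 65 genes called in both settings. The Fast-side genes with the highest lower percentile were Nbeal1, the keratin gene Krt84, Ttyh1, the RNA polymerase I subunit gene Cd3eap, Marcks and the lipase gene Lipg. They were followed by Eprs, a glutamyl-prolyl-tRNA synthetase gene, Alg3 with Eef1akmt4 and Eef1akmt4-ece2, which share 1 peak, the growth hormone receptor gene Ghr and Fgfr4, the receptor of the bile acid hormone FGF15. Each of these 12 genes was called in both settings. An end call asks only for a peak within 1 kb, so it can come without a Fast-only region. Nbeal1, Krt84, Ttyh1 and Eprs had 0 Fast-only regions among the 5, 1, 4 and 7 nearest to them. Scaled to the length covered by each list, values overlapped between states for Nbeal1, Ttyh1, Cd3eap, Marcks and Eprs, and not for the others. Eprs had 108 and 89.6 against 98.4 and 100 bp per Mb. Ghr had 5707 and 4725 bp under peaks (gene body and 5 kb on each side) in the Fast lists against 485 and 883 bp in the Fed lists. Fgfr4 had 3442 and 3645 bp against 569 and 1369 bp, and its end was marked in both tetracycline Fast lists and in neither tetracycline Fed list. For Ghr those ends were marked in Fast 1 and in both Fed lists, so the separation at the end of Ghr was absent with tetracycline.

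The Fed-side genes were led by Ptges, which encodes prostaglandin E synthase, H2-Ab1, an MHC class II chain gene, Pam, Zscan21, Cmtm7 and the corepressor gene Cbfa2t3, followed by the cyclin E gene Ccne1, Rhbg, Hectd2, Ccndbp1, Hivep3 and Tmsb15b1. All 12 were called in both settings. Ptges had 0 Fed-only regions among the 9 nearest to it. H2-Ab1 had 782 and 0 bp under peaks in the Fast lists against 3716 and 2573 bp in the Fed lists. Ccne1 had 0 bp in both Fast lists against 1370 and 1229 bp. With tetracycline H2-Ab1 was marked in Fast 1 and in neither Fed list, and Ccne1 in Fast 1 and in both Fed lists. The end of Hivep3 was Fed-only, yet over the whole gene it had 15314 and 10090 bp in the Fast lists and 3782 and 6277 bp in the Fed lists.

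Ketone body genes carried Fast-only acetylation at the transport and sensing steps. The 9 genes of synthesis, use and sensing were nearest to 10 Fast-only regions of 85 (11.8%), where the share over all regions within 100 kb of a gene was 3.88%, and to 2 Fed-only regions (background 1.54%). From top peaks they had 5 Fast-only and 1 Fed-only of 56. In that setting 2.58% of all regions within 100 kb of a gene were Fast-only and 4.07% Fed-only, the background for each list below. Of the 10 Fast-only regions 8, 4, 0 and 3 recurred in the tetracycline lists Fast 1, Fast 2, Fed 1 and Fed 2. The list was chosen with results of these data known, and the counts carry no test.

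The receptor and transporter genes of ketone bodies were called at their ends. Hcar2, the receptor for beta-hydroxybutyrate, had 1020 and 819 bp in the Fast lists and 0 bp in both Fed lists, and with tetracycline its end was marked in both Fast lists and in neither Fed list. It was called in both settings. Slc16a7, a monocarboxylate transporter, had 2563 and 1662 bp against 0 and 0 bp, but was not called with top peaks. The mitochondrial enzyme genes Bdh1, Oxct1 and Acat1 were marked in all 4 lists. Covered length was also scaled to the total length covered by each list (bp per Mb covered). Of the 6 ketone genes with enough of it to compare (mean of at least 2 kb), 1 had both Fast values above both Fed values and 2 had the reverse, with a median log2 ratio of -0.05 against -0.13 over all 7783 genes compared. Scaling moved that median over all genes to 0.25 in unscaled bp, so gene lists are read against it. In unscaled bp 1 ketone gene had both Fast lists above and 0 the reverse, with a median of 0.30. Over all 7783 genes, 2588 had both Fast lists above in unscaled bp and 367 the reverse. Scaled, the shares were 15.2% and 31.2%. With top peaks the counts over all genes were 1365 and 1453 of 6777. These are the background for each list below.

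**Figure D3:**
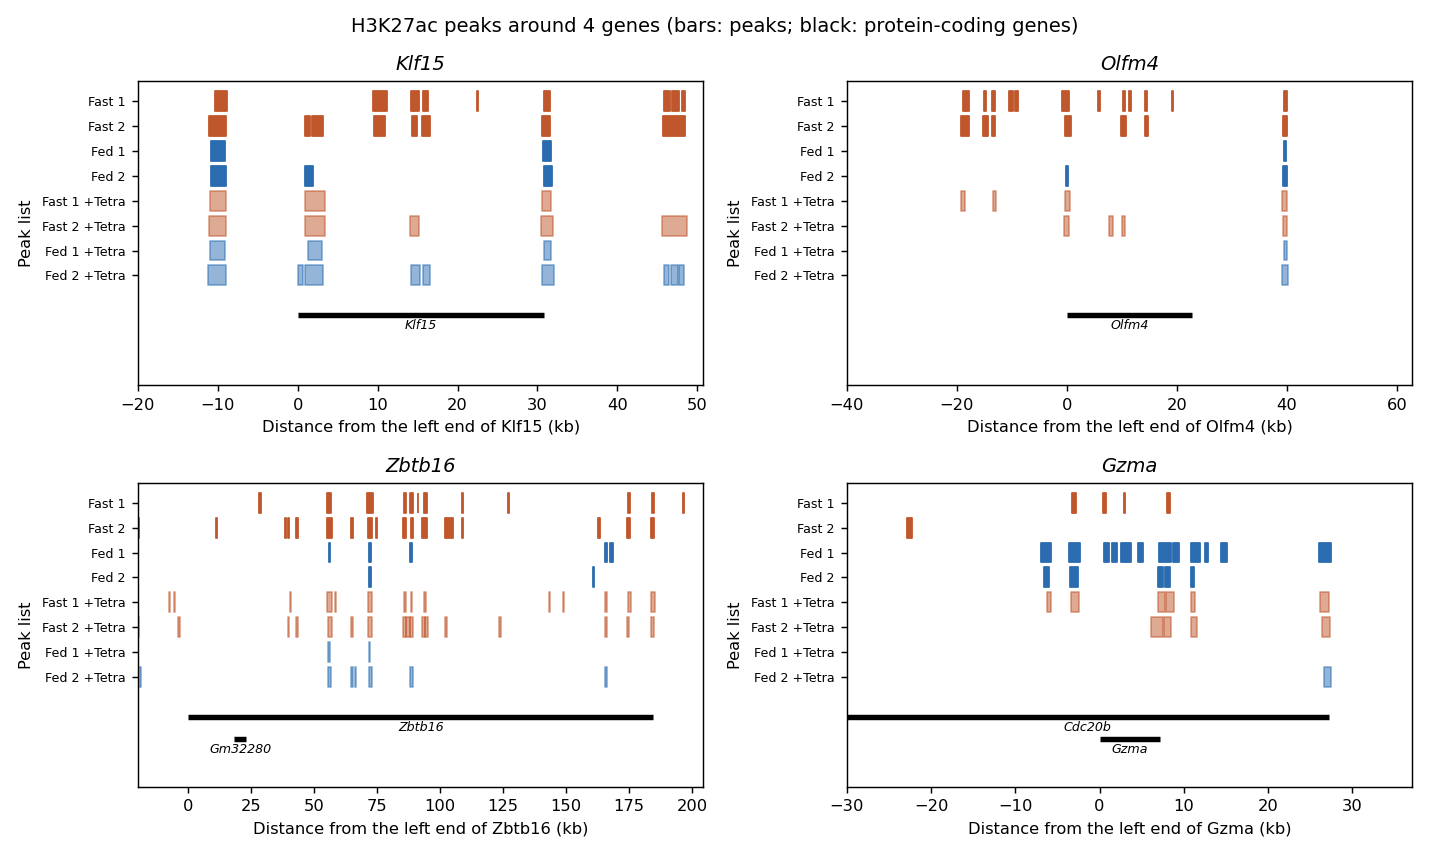
Peaks (bars) of the 8 H3K27ac lists, without and with tetracycline (+Tetra), against distance in kb from the left end of Klf15, Olfm4, Zbtb16 and Gzma; protein-coding genes are black. Around Olfm4 Fast 1 and Fast 2 without tetracycline had 13 and 7 peaks and Fed 1 and Fed 2 had 1 and 2, and around Klf15 9, 8, 2 and 3; around Gzma the order was 4, 1, 14 and 5 without tetracycline and 6, 4, 0 and 1 with it.

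Fatty acid oxidation genes had 18 Fast-only and 0 Fed-only regions among 206 (8.74%, against 3.88% of all), spread over 12 of the 25 genes. From top peaks the counts were 10 and 1 of 143. The 18 regions did not separate the tetracycline lists, recurring in 11, 11, 4 and 12 cases in Fast 1, Fast 2, Fed 1 and Fed 2, and by covered length with tetracycline 4 genes had both Fast lists above and 5 both Fed lists above. Of 18 genes compared by covered length, 7 had both Fast lists above both Fed lists and 2 the reverse, where 15.2% and 31.2% of all genes compared did so. The median log2 ratio was 0.29, against -0.13 over all genes. In unscaled bp the counts were 8 and 0, against 2588 and 367 of all 7783 genes, with a median of 0.62. With top peaks they were 10 and 1 of 16, against 1365 and 1453 of all 6777. Acot1, a cytosolic acyl-CoA thioesterase and PPAR alpha target, was called at its end in both settings: 2040 and 3191 bp in the Fast lists against 0 and 587 bp in the Fed lists, with its promoter as printed above. With tetracycline its end was marked in all 4 lists. Cpt1a, the carnitine palmitoyltransferase that admits fatty acids to mitochondria, had 371 and 314 bp per Mb in the Fast lists and 261 and 298 in the Fed lists. Those values did not overlap, but the mean ratio was 1.22-fold, below the rule, and with tetracycline both Fast lists (310 and 299) lay below both Fed lists (322 and 311). Its 3 Fast-only regions inside the gene were not called with top peaks. Pdk4, a brake on pyruvate oxidation, had 3226 and 1510 against 997 and 1433 bp; scaled to the lists, Fast 2 (23.5 bp per Mb) lay below Fed 1 (26.5). Fgf21 had 0 bp in all 4 lists. Chosen after their values were seen, Cyp4a10, a fatty acid hydroxylase, had 2755, 4512, 0 and 729 bp, and Hadhb, of the mitochondrial trifunctional protein, 9866, 12092, 3237 and 6464 bp, in Fast 1, Fast 2, Fed 1 and Fed 2.

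The glucocorticoid receptor and its targets had 11 Fast-only and 2 Fed-only regions of 107 (10.3% Fast-only) in the full lists and 9 and 1 of 67 with top peaks. Of its 11 Fast-only regions, 8 and 9 were found in the tetracycline Fast lists and 0 and 1 in the Fed lists. Zbtb16, a zinc finger transcription factor gene induced by glucocorticoids, was called by every measure used: 11013 and 16373 bp in the Fast lists against 4048 and 1582 bp, 3.37-fold per Mb, and 5 Fast-only regions. With tetracycline it had 208 and 338 bp per Mb in the Fast lists and 40.3 and 91.9 in the Fed lists, again without overlap. Sgk1, the serum and glucocorticoid regulated kinase, was marked at its end in both Fast lists and no Fed list in both settings. It had 143 and 115 against 49.9 and 83.1 bp per Mb, 1.94-fold, below the 2-fold rule, which it passed with top peaks. With tetracycline its end was marked in both Fast lists and in Fed 2, and the values overlapped (146 and 247 against 63.5 and 174). Fkbp5 and Tsc22d3, named after their values were seen, had 2 Fast-only regions each. The steroid enzyme gene Cyp11a1 had 0 bp in all 4 lists.

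The insulin, FoxO and gluconeogenesis list had 19 Fast-only and 3 Fed-only regions of 207 (9.18% Fast-only), and 8 and 5 of 127 with top peaks. The 19 regions recurred in 9, 9, 1 and 7 cases in the tetracycline lists, and by covered length with tetracycline 1 gene had both Fast lists above and 4 both Fed lists above. Klf15, a transcription factor of fasting metabolism, had 4398 and 6064 bp in the Fast lists and 925 and 2038 bp in the Fed lists, 2.82-fold per Mb, with 4 Fast-only regions, 2 of them called in both settings. With tetracycline the Klf15 values overlapped (70.2, 104, 81.1 and 119 bp per Mb), and with top peaks the gene did not pass the 2-fold rule. Chosen after its values were seen, the insulin receptor substrate gene Irs1 had 2393 and 3066 bp against 0 bp in both Fed lists. Of 13 genes compared, 4 had both Fast lists above and 3 both Fed lists above, against 15.2% and 31.2% of all genes compared. The median log2 ratio was -0.05. In unscaled bp the counts were 5 and 0, against 2588 and 367 of all 7783 genes, with a median of 0.36. The circadian clock list had 1 Fast-only and 3 Fed-only regions of 137. Of its 13 genes 2 had both Fast lists above and 1 both Fed lists above, with a median of -0.12, and in unscaled bp 6 and 0, with a median of 0.26. The sterol and fatty acid synthesis list had 5 and 1 regions of 132. Of its 12 genes compared 6 had both Fed lists above and 1 both Fast lists above, with a median log2 ratio of -0.10, near that of all genes. In unscaled bp 2 had both Fed lists above and 3 both Fast lists above, with a median of 0.28. Its one called gene was Sqle, the squalene epoxidase of cholesterol synthesis, with 1255 and 2687 bp in the Fast lists and 3679 and 2984 bp in the Fed lists, 2.35-fold more per Mb in Fed. With tetracycline the Sqle values kept that order (22.1 and 40.5 against 76.7 and 54.2 bp per Mb).

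Crypt stem cell genes had 25 Fast-only and 0 Fed-only regions among 234 (10.7%, against 3.88% of all), and 12 of the 14 genes held at least 1. Lrig1 held 7 of them and Olfm4 5. From top peaks the list had 7 and 1 of 126 (5.56%, against 2.58%), and 5 regions were called in both settings. In the tetracycline lists 13 and 6 of the 25 recurred in Fast 1 and Fast 2 and 0 and 2 in Fed 1 and Fed 2. Gene ends were marked in 12, 12, 8 and 10 of the 14 genes in Fast 1, Fast 2, Fed 1 and Fed 2. The summed covered length of the list was 1928, 2128, 1064 and 1401 bp per Mb. Of 9 genes compared, 6 had both Fast lists above both Fed lists and 0 the reverse, against 15.2% and 31.2% of all genes. The median log2 ratio was 0.58. In bp not scaled to the list total it was 7 and 0, against 2588 and 367 of all 7783 genes, with a median of 0.96 where all genes had 0.25. With top peaks it was 6 and 0 of 7, against 1365 and 1453 of all 6777.

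Stem cell markers differed in how much acetylation the Fed lists kept. Ascl2, the Wnt-driven transcription factor of stem cells, had 2876 and 2514 bp in the Fast lists and 0 bp in both Fed lists. Lgr5, the R-spondin receptor that defines these cells, had 1594 and 584 bp against 0 and 0 bp, none of it at a gene end. Olfm4, a secreted glycoprotein of the same cells, had 3063 and 2543 bp against 0 and 513 bp, and 5 Fast-only regions from 17.8 kb outside the gene to within it. Tnfrsf19 had 1452 and 1488 bp against 0 and 0 bp. None of these 4 had a mean of 2 kb over the lists, so no fold is given, and in equal-number lists none was called at its end. Smoc2 passed the covered-length rule with 4595 and 8930 bp against 1027 and 2715 bp (2.88-fold per Mb), and did not with top peaks. Znrf3, a ubiquitin ligase that removes Wnt receptors, passed in both settings with 6563 and 8011 bp against 1321 and 3046 bp (2.69-fold). Lrig1 had 28780 and 41072 bp against 10404 and 21690 bp. With tetracycline the Fast lists lay above the Fed lists for Smoc2 (113 and 119 against 38.8 and 27.8 bp per Mb) and for Znrf3 (144 and 59.9 against 29.5 and 49.3). In a bulk preparation, fewer cells of a type and less acetylation per cell cannot be told apart.

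Absorptive enterocyte genes lay lower in the Fast lists once scaled to covered length. The 14 genes had 0 Fast-only and 4 Fed-only regions of 122 (3.28% Fed-only, against 1.54% of all). With top peaks they had 1 and 4 of 87, and the Fed-only share (4.60%) was near the 4.07% of all. Of 13 compared, 9 had both Fed lists above both Fast lists and 0 the reverse, against 31.2% and 15.2% of all genes compared. The median log2 ratio was -0.57. With top peaks it was 10 and 0, against 1453 and 1365 of all 6777 genes, with a median of -0.35. In unscaled bp 0 of the 13 separated either way, and the median was -0.15 where all genes had 0.25. No member reached the 2-fold rule. With tetracycline 7 had both Fed lists above and 0 the reverse, against 22.2% and 14.5% of all genes compared. Chosen after their values were seen, the glucose transporter gene Slc2a2 had 126, 127, 212 and 205 bp per Mb and the apolipoprotein gene Apoc3 132, 174, 245 and 221, in Fast 1, Fast 2, Fed 1 and Fed 2. The lists are of a mixed crypt preparation, and the part of cell composition in the stem and enterocyte values was not tested. General epithelial genes had 8 Fast-only (6.20%) and 2 Fed-only (1.55%) regions of 129, and with top peaks 6 (5.94%, against 2.58% of all) and 0 of 101, and a median log2 ratio of 0.01 (0.38 in unscaled bp). Epcam had 129, 91.2, 97.4 and 103 bp per Mb, with overlap.

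**Figure D4:**
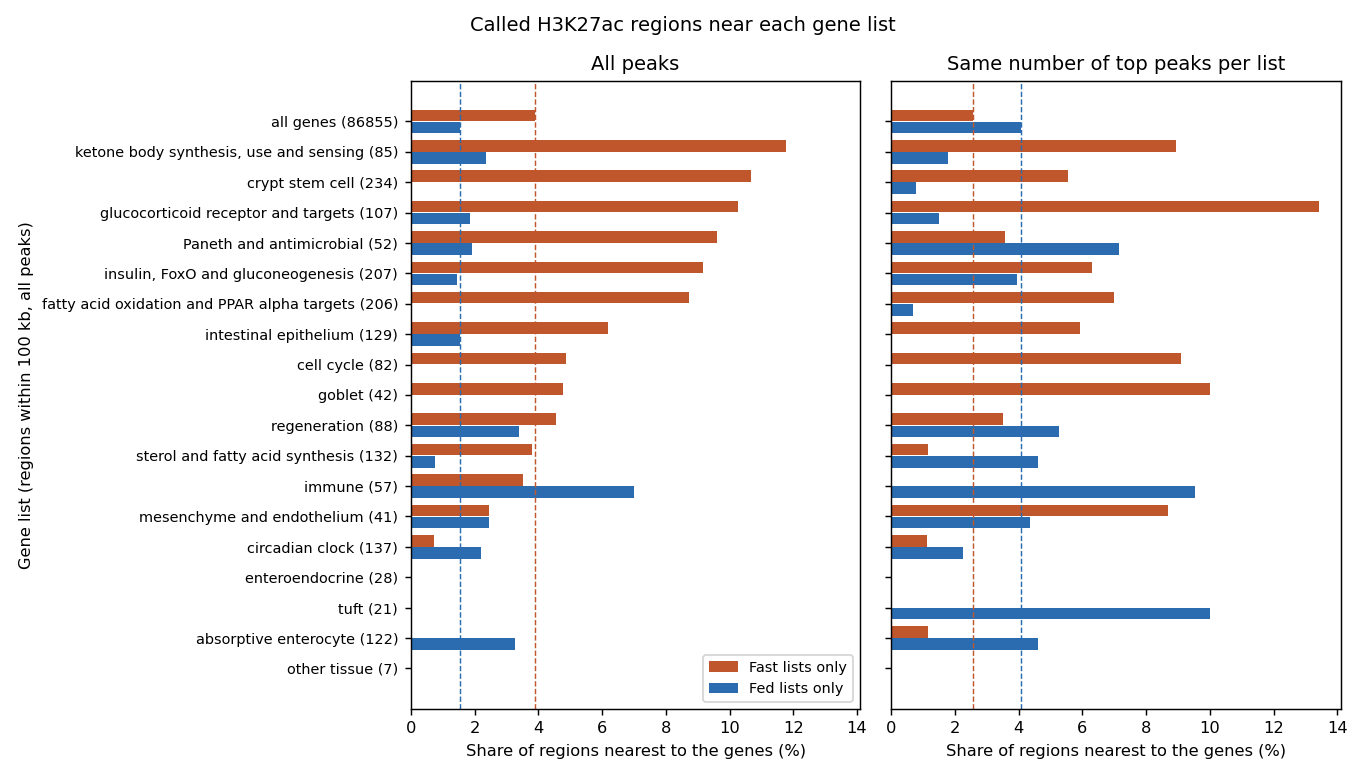
Share of regions within 100 kb (horizontal axis, percent) that were Fast-only (orange) or Fed-only (blue) for each gene list, with all peaks (left) and equal numbers of top peaks (right). Dashed lines are the shares over all genes, 3.88% and 1.54% on the left and 2.58% and 4.07% on the right. The stem cell list reached 10.7% and 5.56% Fast-only, and the immune list had more Fed-only than Fast-only regions in both panels; the lists are unequal in size, from 7 to 234 regions with all peaks.

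Secretory and antimicrobial genes gave calls in both directions. The Paneth and antimicrobial list had 5 Fast-only and 1 Fed-only regions of 52, and with top peaks 1 and 2 of 28. Mmp7, the protease that activates defensins, had 2243 and 1485 bp in the Fast lists and 0 bp in both Fed lists, and Reg3b, an antimicrobial lectin, 556 and 3262 bp against 0 bp. Neither was called at its end with top peaks, and the end of Mmp7 was unmarked in all 4 tetracycline lists. Duox2, an epithelial hydrogen peroxide source, was Fed-only at its end in both settings, with 508, 1565, 1716 and 3076 bp in Fast 1, Fast 2, Fed 1 and Fed 2, and unmarked in all 4 tetracycline lists. Reg3g had 0, 1184, 0 and 492 bp, and Lyz1, the Paneth lysozyme, 596, 503, 0 and 561 bp, both with overlap. The trefoil gene Tff3 of goblet cells had 2901, 2799, 0 and 1271 bp and was called at its end with all peaks, not with top peaks. Muc2 had 0, 0, 0 and 514 bp. The enteroendocrine list (28 regions) and the tuft list (21 regions) had 0 calls either way.

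The cell cycle list had 4 Fast-only (4.88%) and 0 Fed-only regions of 82, all 4 called in both settings. With top peaks it had 5 (9.09%, against 2.58% of all) and 0 of 55, and with a score of at least 100 it had 7 (13.2%, against 4.26%) and 0 of 53. Of its 8 genes compared 2 had both Fast lists above and 1 both Fed lists above, with a median log2 ratio of 0.16 (0.52 in unscaled bp). With top peaks it was 5 and 0 of 7, against 1365 and 1453 of all 6777 genes. The regeneration list had 4 and 3 regions of 88, and with top peaks 2 and 3 of 57. Of its 5 genes compared 1 had both Fast lists above and 2 both Fed lists above. The median log2 ratio was -0.28 (0.10 in unscaled bp), against -0.13 over all genes, and with top peaks the counts were 1 and 1. Tead1, the DNA-binding partner of YAP, passed the covered-length rule in both settings, with 13725 and 13786 bp in the Fast lists and 2678 and 6523 bp in the Fed lists (2.44-fold per Mb), and 109 and 236 against 45.4 and 66.0 bp per Mb with tetracycline. Among promoter windows called at the start of transcription, the TEAD motif GGAATG was found in 20.9% of 244 Fast-only windows, 10.1% of 119 Fed-only windows and 13.6% of all 21262 windows. CDX TTTATNG was found in 13.5%, 8.40% and 9.58% of the same windows. The FOXO motif TGTTTAC was found in 4.51%, 2.52% and 3.01%, and the nuclear receptor site AGGTCA in 12.3%, 13.4% and 14.7%. The PPAR direct repeat of that site was in 0 Fast-only and 0 Fed-only windows, and the glucocorticoid receptor palindrome in 1 and 0.

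Over whole genes, 228 of the 7783 genes compared (2.93%) had at least 2-fold more covered length per Mb in Fast, with both Fast lists above both Fed lists, and 178 (2.29%) the reverse. With top peaks these were 153 (2.26%) and 186 (2.74%) of 6777, and in unscaled bp 514 and 35. The largest ratios in Fast were as follows. Sorbs2 had 5102 and 4668 bp in the Fast lists and 0 bp in both Fed lists, Arhgap24, which encodes a GTPase activator, 7768, 4565, 0 and 441 bp (26.2-fold), and the transcription factor gene Zfhx3 8182, 6634, 0 and 685 bp. They were followed by Galntl6 (19.9-fold), Pla2g5 (15.6-fold) and Plcb1 (15.5-fold). None of the 6 passed with top peaks. Of the 228 genes, 144 (63.2%) also had both tetracycline Fast lists above both Fed lists, against 14.5% of all genes compared, and 1 had the reverse. In H3K9ac 65 (28.5%) did so, against 6.09%. Of the 178 genes, 58 (32.6%) had both tetracycline Fed lists above, against 22.2% of all, and 31 (17.4%) the reverse. In H3K9ac 73 (41.0%) had both Fed lists above, against 26.4%.

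The largest ratios in Fed included genes of lymphocytes. Gzma, which encodes a granzyme of cytotoxic lymphocytes, came first (8.95-fold), followed by Cdc20b (8.64-fold). Gzma lies inside Cdc20b, so every base counted for Gzma was counted again for Cdc20b. Gzma had 1468, 0, 7586 and 2457 bp and Cdc20b 1731, 585, 11396 and 3077 bp in Fast 1, Fast 2, Fed 1 and Fed 2. The chemokine gene Ccl4 had 326, 1081, 4574 and 2029 bp, the T cell kinase gene Zap70 693, 1091, 3647 and 2867 bp, and Cmtm7 1287, 711, 4560 and 2803 bp. Dbndd2 had 314, 1314, 3918 and 4130 bp. Gzma, Cdc20b, Cmtm7 and Dbndd2 also passed with top peaks, and Ccl4 and Zap70 did not. Cd3e, of the T cell receptor complex, had 0 bp in both Fast lists and 1749 and 1342 bp in the Fed lists, was called at its end in both settings, and had 2 Fed-only regions. In each of these genes other than Dbndd2, Fed 1 was the highest list. The 16 immune genes summed to 389, 386, 896 and 419 bp per Mb, so that Fed 1 stood apart and Fed 2 was close to the Fast lists. With tetracycline the sums were 468, 478, 233 and 276, with the Fed lists below. The immune list had 2 Fast-only and 4 Fed-only regions of 57 (7.02% Fed-only, against 1.54% of all). With top peaks it had 0 and 4 of 42 (9.52% Fed-only, against 4.07%). The leukocyte gene Ptprc was Fast-only at its end with all peaks, with 1712, 1519, 1507 and 0 bp over the gene. Markers Cd4 and Lyz2 had 0 bp in both Fed lists. The part of lymphocyte content in these values was not tested.

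**Figure D5:**
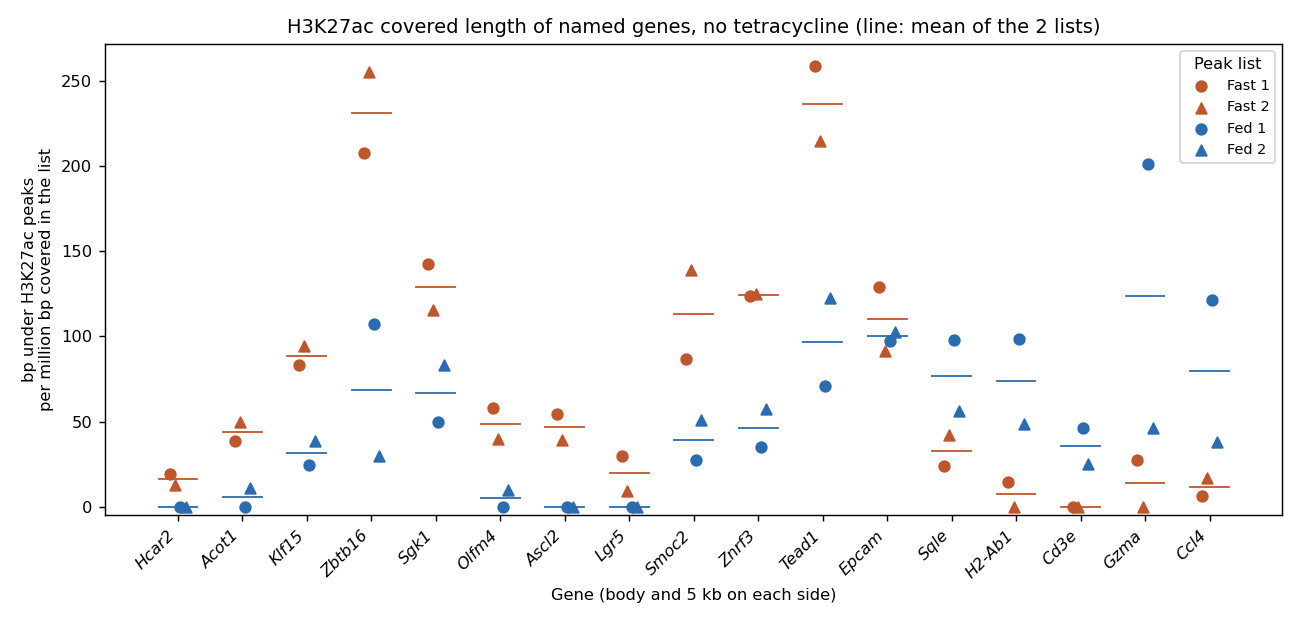
Covered length per Mb covered in the list (vertical axis) of named genes (horizontal axis) in Fast 1 and Fast 2 (orange) and Fed 1 and Fed 2 (blue); short lines are means of the 2 lists of a state. Ascl2, Hcar2 and Lgr5 sat at 0 in both Fed lists and Cd3e at 0 in both Fast lists; the Fed values of Gzma (201 and 46.2) were spread far apart.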

How the data were processed

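CUT&Tag peak lists of H3K27ac from small intestinal crypts of fed and 24 h fasted mice, each group 1 sample with 2 lists, were used as deposited. The lists have no header. Each line of the deposited lists holds an interval, a peak name in the style of MACS and a score of at least 50 whose unit is not given in the sources used here. The names of the files say the lists were made from downsampled reads. The genome build was mm10, and FastQC, Bowtie and SAMtools are named without versions or roles, per the submitters' processing notes. Depth per list is unknown, so no counting interval is given.

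Peaks were merged by any overlap of 1 bp with Python 3.11.15, numpy 2.4.6 and pandas 2.3.3. Genes were the 21883 protein-coding genes of the RefSeq table for GRCm38.p6, and 17491 of them matched a promoter window. That table has no strand, so a gene was marked by a peak within 1 kb of either end. Covered length was the bp under peaks in the gene and 5 kb on each side, per Mb covered in the list, for genes with a mean of at least 2 kb over the lists and no pseudocount. A gene was called at a 2-fold ratio of means without overlap between states. A region belonged to its nearest gene within 100 kb. Whole-list values were compared by the two-sided exact permutation test of 2 lists against 2.

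Named in each direction were the 12 genes called at ends and the 6 distal regions with the highest lower percentile, the 8 genes with the most called regions, the 6 with the largest covered-length ratio, called members of the lists, and Lgr5, Olfm4, Ascl2, Cpt1a, Pdk4, Hcar2, Reg3g, Lyz1, Muc2, Epcam and Cd3e. The comparison, its members and the gene lists were chosen with earlier results of these data known. Some genes that the rule names are not reported here. Pla2g2a was not in the gene table. Mesenchymal and endothelial markers had 1 Fast-only and 1 Fed-only region of 41, the goblet list 2 and 0 of 42 and the list of other tissues 0 of 7. Alternatives were equal numbers of top peaks, stricter scores, wider peaks, other overlaps and distances, other folds and scalings, and leaving out lists. H3K9ac lists with tetracycline entered only the count of regions over all lists.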

Additional observations from a re-analysis of the deposited data

Results flagged for a closer look

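In 7 values, the lists without tetracycline all moved one way between feeding states and those with tetracycline all moved the other way. The values searched were the covered length and the number of marked members of each gene list, and the covered length of each named gene. Many genes were named because the lists without tetracycline called them. Gzma and Cd3e are also members of the immune list, so these values are not independent. The differences between the 2 treatments were not tested. Values are Fast minus Fed in covered bp per Mb covered, first without and then with tetracycline. The sum over the 16 immune genes was -269.9 and 218.5. Gzma gave -110.0 and 61.5, Cdc20b, which contains Gzma and its peaks, -159.4 and 90.95, Ccl4 -68.3 and 25.7, and Cd3e -35.8 and 13.0. Atxn1 gave -145.0 and 8.54. Cpt1a turned the other way, at 62.8 without and -12.1 with tetracycline. For the immune sum and for Gzma, Cdc20b, Ccl4, Cd3e and Atxn1, Fed 1 without tetracycline was the highest of its 4 lists (896 for the sum, with the others from 386 to 419).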

How the results depend on the processing

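With the same number of top peaks per list the counts were 1487 Fast-only and 2341 Fed-only regions, and 131 and 321 genes at ends. A score of at least 100 left 2290 and 760 regions. Start sites alone gave 183 Fast-side genes, and covered length without the flank 116 Fed-side genes. A 1.5-fold rule gave 566 and 803 genes, and unscaled bp 514 and 35. Calls held in both peak settings, an alternative chosen after seeing the data, were 904 and 821 regions, 69 and 65 genes at ends, and 85 and 90 genes by covered length. Of 65 values for the main results under settings other than left-out lists, these 18 counts lay over 1.5 times from the main count; no difference changed sign, but several changed in size. With top peaks the tetracycline differences were 34.3 and -15.95 points, the H3K9ac differences 0.50 and -7.24, the gene-end share of peaks -2.64 and, by construction, the log2 peak ratio 0. With peaks of at least 500 bp that ratio was 0.23, the gene-end share -2.90 and the Fed-only H3K9ac difference -5.41.

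Leaving out lists gave 4203 to 43395 Fast-only and 2063 to 10833 Fed-only regions, 381 to 1927 and 259 to 928 genes at ends, and 207 to 592 and 139 to 605 genes by covered length. By construction, fewer lists make a call easier to meet. The tetracycline difference at Fast-only regions ranged from -2.69 to 22.5 points and was reversed, at -2.69, with only the lists numbered 2. At Fed-only regions it ranged from -24.4 to 11.9, reversed at 11.9 with only those numbered 1. In H3K9ac the ranges were -2.43 to 7.41 (reversed at -2.43 without the lists numbered 1) and -7.57 to 6.21 (reversed at 6.21 without those numbered 2 and at 0.038 without Fed 1). The cause was not tested. The log2 peak ratio ranged from 0.22 to 0.92 and the gene-end share of peaks from -10.3 to -2.56 points. No paired analysis was possible because the list numbers stand only in file names and no label ties lists of the 2 groups together. Depth is unknown and limits every call of absence.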
